A study of Mus musculus with 10 samples.

Results

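Transcripts of 7 genes for secreted or ligand-type cytokines, Csf1, Ifng, Il10, Ebi3, Areg, Ltb and Il16, were followed in regulatory T (Treg) cells from mouse spleen. The genes were picked by name, with earlier results of these same libraries known, and 6 of the 7 had a row among the 14738 genes of the deposited table. Ebi3 had none and was not analysed here. The sorted cells expressed CD4 and the Foxp3-YFP reporter and carried CD45.2 without CD45.1. They came from chimeric mice whose marrow was a mixture of CD45.1+ marrow and marrow of the tested genotype in equal parts. In both groups the tested marrow carried Foxp3Cre, a Cre recombinase driven by Foxp3. The group labelled WT was Foxp3Cre alone (5 biological replicates), and the group labelled Flcn KO was Foxp3CreFlcnfl/fl, with loxP-flanked Flcn alleles (5 biological replicates). Cre, and so the deletion, was by design directed to cells that express Foxp3, and where deletion took place was not measured here. Both groups shared their hosts with cells from CD45.1+ marrow. Neither the age nor the sex of the mice, nor any pooling of animals, is given in the sources used here.

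Treg cells restrain other immune cells partly through what they secrete. Il10 encodes interleukin-10, which dampens myeloid and T cell responses through a receptor made of the Il10ra and Il10rb chains. Ebi3 encodes a chain that pairs with the products of Il12a or Il27 to form secreted heterodimers. Areg encodes amphiregulin, an epidermal growth factor family ligand tied to tissue repair by Treg cells. Csf1 encodes the macrophage growth factor that acts through Csf1r. Ifng encodes interferon-gamma, the signature cytokine of type 1 T helper cells. Ltb encodes lymphotoxin beta, a membrane anchor that joins lymphotoxin alpha and signals through Ltbr. Il16 encodes a long precursor whose C-terminal part is cut off, released and acts on CD4-bearing cells.

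Promoter sequences are shown for the 3 cytokines whose levels were lowest relative to WT and for Ltb, whose mean was nearly the same in both groups. RefSeq promoters (GRCm38.p6) were found for 6 of the 7 genes, all but Il10, with 8 entries in all because Il16 has 3 starts. Each line gives the 250 bases before the start, written 5′ to 3′ on the strand of the gene. Capitals mark every match, on either strand, to the E-box CACGTG, AP-1 TGANTCA, CRE TGACGTCA, GAS TTCNNNGAA, TATA box TATAAA and NF-kB (GGG, any 2 bases, then TTTCC).
Csf1, chr3:107760470-107760719, minus strand: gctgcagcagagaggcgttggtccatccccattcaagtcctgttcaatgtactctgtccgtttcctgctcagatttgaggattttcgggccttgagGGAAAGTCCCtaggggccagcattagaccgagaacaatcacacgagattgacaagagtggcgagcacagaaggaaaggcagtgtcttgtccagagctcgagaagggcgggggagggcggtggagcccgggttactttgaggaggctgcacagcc
Ifng, chr10:118440796-118441045, plus strand: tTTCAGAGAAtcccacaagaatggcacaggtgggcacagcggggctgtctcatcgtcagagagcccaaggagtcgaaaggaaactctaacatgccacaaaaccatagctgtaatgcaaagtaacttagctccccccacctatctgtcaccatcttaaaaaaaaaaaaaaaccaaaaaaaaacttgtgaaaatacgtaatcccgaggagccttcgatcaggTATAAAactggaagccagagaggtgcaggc
Areg, chr5:91139349-91139598, plus strand: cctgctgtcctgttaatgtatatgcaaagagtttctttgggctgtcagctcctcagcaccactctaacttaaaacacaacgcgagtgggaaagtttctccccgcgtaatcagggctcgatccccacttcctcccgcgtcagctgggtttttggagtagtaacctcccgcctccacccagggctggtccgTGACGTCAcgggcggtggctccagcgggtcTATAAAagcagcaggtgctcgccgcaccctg
Ltb, chr17:35194257-35194506, plus strand: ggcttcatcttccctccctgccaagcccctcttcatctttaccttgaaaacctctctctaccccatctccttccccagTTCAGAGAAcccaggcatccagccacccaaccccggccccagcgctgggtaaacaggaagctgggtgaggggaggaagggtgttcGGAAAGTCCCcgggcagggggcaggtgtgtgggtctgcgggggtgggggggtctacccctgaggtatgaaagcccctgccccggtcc
The Csf1 and Ltb windows held the same 10 letters, GGAAAGTCCC, a match to the NF-kB motif that began 154 bases before the Csf1 start and 87 bases before that of Ltb. This motif was found in 1.41% of all 32851 promoter windows of that length. A window of Il16 held another match to it, GGGAATTTCC, which began 49 bases before the start. Ifng and Ltb each held TTCAGAGAA, a match to the GAS motif (7.02% of promoters). The Areg window held the CRE motif (1.55% of promoters). Ifng and Areg each had a TATA box, found in 12.4% of promoters, 30 and 31 bases before the start. The AP-1 motif (6.75% of promoters) was matched in 1 window of Il16 only among the 8. The E-box CACGTG, a core that MiT/TFE factors recognise (6.02% of promoters), was not in any of the 8 windows. Other letters that these factors may bind were not searched for. The short NFAT core GGAAA, which overlaps the NF-kB matches and is otherwise not capitalised, was in all 8 windows and in 55.6% of promoters. A match is a run of letters, not a shown binding site.

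Between 1914516 and 4153854 reads per library were assigned to genes in the table. Values are normalized counts, that is reads divided by a size factor per library, and 1 read was worth 0.628 to 1.27 of them. WT replicate 1 stood apart, with 44.1% of its reads in mitochondrial rRNA against 24.7% to 31.8% in the other libraries. Flcn itself was 54.2 ± 13.8 normalized counts in WT and 138 ± 14.4 (SD, n = 5 each) in the libraries labelled Flcn KO, which is higher, not lower. Gene-level values cannot tell the deleted exons from the rest, so this neither checks nor overturns the genotype, and every direction below follows the labels. Of 14 Treg markers, none at 0 in any library, Il2ra and Itgae rose and Ikzf2 and Nrp1 fell (limma, adjusted p under 0.05, a threshold passed by 1.71% of all tested genes in either direction). The log2 fold change was negative for 11 of the 14, with a median of -0.20. Of the 14, edgeR called 2 higher and 4 lower, beside 5.64% of its genes called in either direction. Foxp3, the defining transcription factor, lay between 1210 and 1384 in WT and between 1056 and 1331 in the libraries labelled Flcn KO.

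Compared with WT, the libraries labelled Flcn KO held less Csf1, Areg and Ifng transcript, while Il10, Ltb and Il16 had similar means in both groups. The ratio of the WT mean to the other mean was 3.88 for Csf1, 4.13 for Areg, 8.94 for Ifng, 1.16 for Il16, 1.03 for Il10 and 1.01 for Ltb. Because the genes were chosen with this contrast in view, these differences are described and not tested. All 6 passed the filter on low values (1 or more normalized counts in 5 or more libraries). Their median log2 fold change was -0.99, beside 0.003 over all tested genes. In limma 2 of the 6, Csf1 and Ifng, were among the genes called lower, and Areg was not. Of 14723 tested genes 0.768% were called lower and 1.71% in either direction. Csf1, Ifng and Areg, 3 of the 6, had an adjusted p under 0.05 in the authors' deposited table, where 2.29% of genes were lower at that threshold and 4.77% passed in either direction. The groups did not overlap for 2 of the 6, Csf1 and Areg, and WT lay above the other group without overlap for 2.45% of all tested genes (4.92% in either direction). Nothing is read from these counts, since the choice of genes used the same contrast. In RNA from sorted cells in bulk, fewer cells transcribing a gene and less RNA per cell cannot be told apart.

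**Figure D1:**
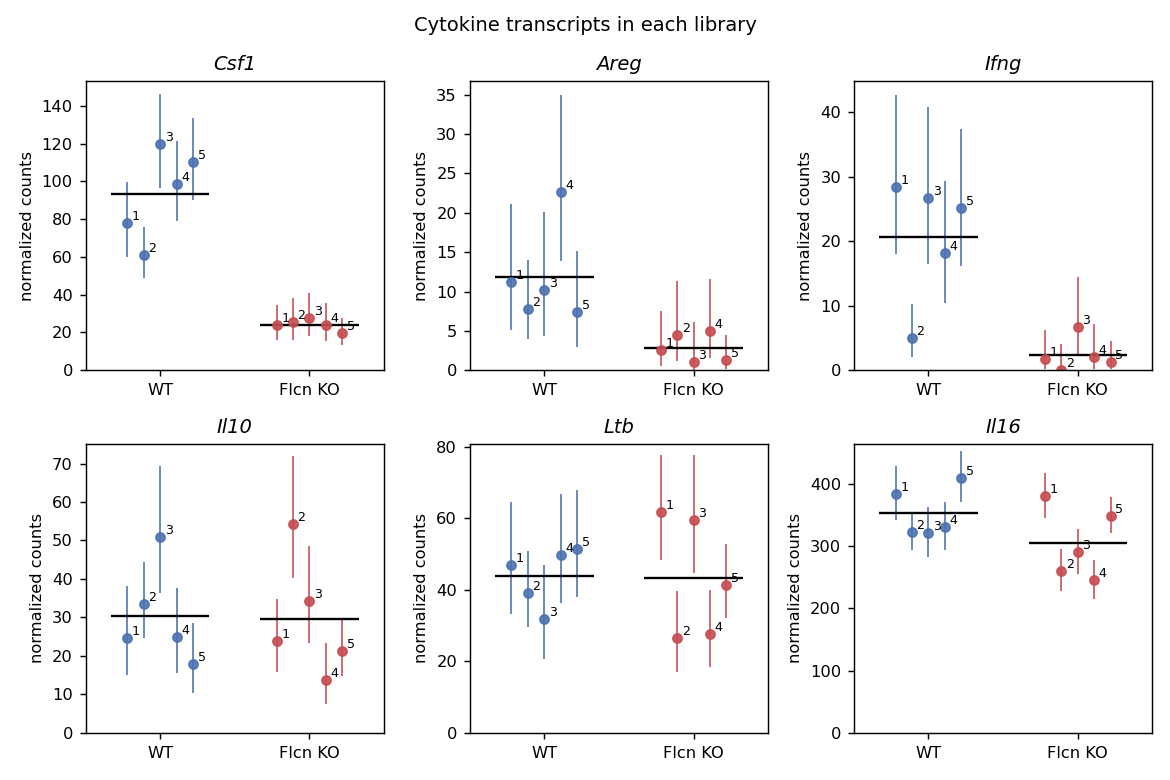
Normalized counts of the 6 cytokine transcripts in each library (vertical axes, linear from 0), with WT in blue and the libraries labelled Flcn KO in red. Points carry their replicate number, bars are exact Poisson 95% intervals of the reads (counting error only), and black lines are group means; Csf1 and Areg do not overlap between the groups, and Ifng overlaps through WT replicate 2 (4.98) and Flcn KO replicate 3 (6.63).

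Csf1, the macrophage growth factor, had the best read support of the 3 lower transcripts. Its WT values were 78.0, 61.2, 119.7, 98.6 and 110.2 normalized counts in replicates 1 to 5, from 63 to 105 reads per library. In the libraries labelled Flcn KO it was 24.0, 25.5, 27.6, 23.8 and 19.5, from 23 to 31 reads. Every WT library lay above 61 and every library of the other group below 28, so no library lay between the groups. The fitted log2 fold change was -1.88 (SE 0.20) on the log2(normalized count + 1) scale, and the authors' deposited table gives -1.96. Leaving out 1 library moved the fitted value between -2.02 and -1.78. Set against counting error, the chi-square of its reads was 6.73 per degree of freedom in WT and 0.484 in the other group. This measure grows with the number of reads (435 in WT and 131 in the other group), and the spreads of the groups (SD 0.39 and 0.18 on the log2 scale, n = 5 each) were not tested against each other.

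Areg, the amphiregulin gene, was sparse. It had 11.1, 7.83, 10.2, 22.7 and 7.35 normalized counts in WT replicates 1 to 5, which rest on 9, 11, 8, 20 and 7 reads. In the libraries labelled Flcn KO it had 2.57, 4.44, 1.11, 4.95 and 1.26, which rest on 3, 4, 1, 5 and 2 reads. All WT libraries lay above all of the others, but the gap between WT replicate 5 and Flcn KO replicate 4 was small. The exact Poisson 95% interval of WT replicate 5 ran from 2.95 to 15.1 normalized counts and that of Flcn KO replicate 4 from 1.61 to 11.6, so these 2 libraries could not be told apart at this depth. Summed over the groups there were 55 reads in WT and 15 in the other group. The fitted log2 fold change was -1.75 (SE 0.38), or -1.50 without WT replicate 4, the library with the most Areg. The added 1 shrinks such low values, and the authors' deposited table gives -2.08.

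Ifng, the interferon-gamma gene, had the largest ratio of WT to Flcn KO means among the 6. WT replicates 1 to 5 had 28.5, 4.98, 26.7, 18.1 and 25.2 normalized counts, from 23, 7, 21, 16 and 24 reads. The libraries labelled Flcn KO had 1.71, 0, 6.63, 1.98 and 1.26, from 2, 0, 6, 2 and 2 reads. The count of 0 in Flcn KO replicate 2 is drawn with an exact Poisson 95% interval that reaches 4.10 normalized counts (3.69 reads). In WT, 4 of the 5 libraries exceeded every library of the other group, and WT replicate 2 lay under Flcn KO replicate 3. Over the groups 91 reads were counted in WT and 12 in the other group. The fitted log2 fold change was -2.82 (SE 0.57), between -3.24 without WT replicate 2 and -2.46 without Flcn KO replicate 2, and the authors' deposited table gives -3.20.

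Il10 varied between libraries far more than between the groups. Its normalized counts were 24.8, 33.5, 50.9, 24.9 and 17.8 in WT replicates 1 to 5 and 24.0, 54.4, 34.3, 13.9 and 21.3 in the libraries labelled Flcn KO, from 14 to 49 reads per library. The ranges covered each other, and the highest and the lowest library both belonged to the Flcn KO group. The log2 fold change was -0.09 (SE 0.37). Its sign depended on single libraries, from -0.34 without Flcn KO replicate 2 to 0.13 without Flcn KO replicate 4. A standard error of this size leaves room for a difference in either direction. The reads varied beyond counting error in both groups (chi-square 4.52 per degree of freedom in WT and 8.52 in the other group).

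Ltb, the lymphotoxin beta gene, had 47.1, 39.2, 31.8, 49.9 and 51.4 normalized counts in WT replicates 1 to 5. In the libraries labelled Flcn KO it had 61.7, 26.6, 59.7, 27.7 and 41.4. Flcn KO replicates 1 and 3 lay above every WT library and replicates 2 and 4 below every WT library, so the group was the wider one on both sides. The log2 fold change was -0.08 (SE 0.27), with 24 to 72 reads per library, and its sign depended on single libraries (-0.23 to 0.07). In WT the reads of Ltb varied little beyond counting (chi-square 1.37 per degree of freedom), against 6.49 in the other group.

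Il16 was the most abundant of the 6 and the least variable. It had 382.7, 321.8, 320.8, 330.9 and 409.4 normalized counts in WT replicates 1 to 5. In the libraries labelled Flcn KO it had 379.8, 259.8, 289.5, 244.8 and 348.5. Flcn KO replicates 2, 3 and 4 lay below every WT library, and replicates 1 and 5 lay within the WT range. The log2 fold change was -0.23 (SE 0.16), from -0.31 to -0.15 with 1 library left out. Its reads varied beyond counting error (chi-square 4.51 per degree of freedom in WT and 11.97 in the other group), a measure that grows with the number of reads. Il16 has 4 coding transcripts of 348 to 5260 bases in GENCODE vM21, and the value per gene does not say which of them was counted.

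Levels per kilobase of transcript put the cytokines in an order that differed between the groups. In WT the order was Il16 (190.1 ± 21.8 normalized counts per kilobase, SD, n = 5), Csf1 (63.8 ± 16.2), Ltb (42.5 ± 7.96), Il10 (23.2 ± 9.73), Ifng (17.1 ± 7.97) and Areg (9.74 ± 5.15). Only Il16 was separated from its neighbour in that order; the ranges of each later pair of neighbours overlapped. In the libraries labelled Flcn KO the order was Il16 (163.9 ± 31.2), Ltb (42.1 ± 16.3), Il10 (22.6 ± 12.0), Csf1 (16.4 ± 2.05), Areg (2.36 ± 1.46) and Ifng (1.92 ± 2.09). There Il16 and Ltb did not overlap, nor did Csf1 and Areg, while Ltb with Il10, Il10 with Csf1, and Areg with Ifng did. Among the 11078 of 14723 tested genes with a transcript length, Csf1 stood above 74.1% in WT and above 39.8% in the other group, and Ifng above 41.6% and 8.33%. Among the same genes Il16 stood above 91.6% and 90.2%, Ltb above 64.7% and 63.8%, and Il10 above 49.4% and 47.8%. Lengths are medians over coding transcripts, and for Csf1 they ran from 773 to 4176 bases, so its place relative to other genes depends on the length used.

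**Figure D2:**
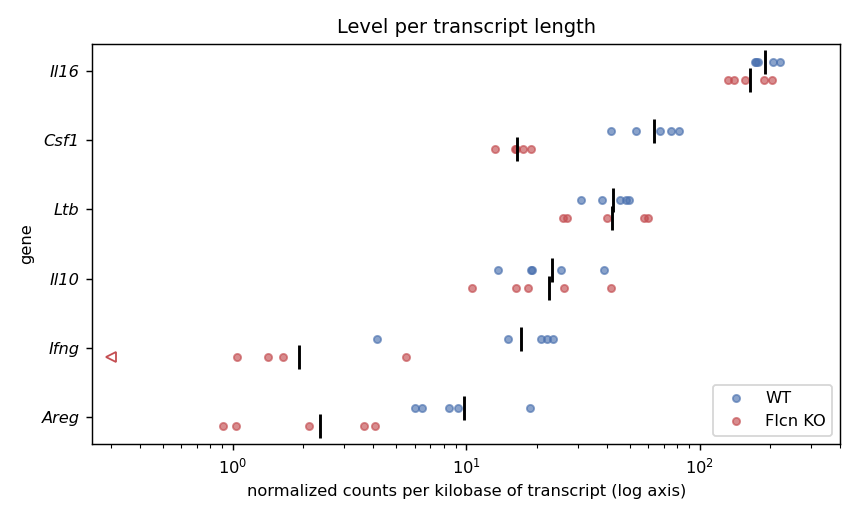
Level of each cytokine per kilobase of transcript on a log axis, with a point for each library (WT blue, libraries labelled Flcn KO red) and a black tick at each group mean; the open triangle stands for the library with 0 reads of Ifng. In the libraries labelled Flcn KO, the means of Csf1, Ifng and Areg lie further left. The means of Ltb, Il10 and Il16 lie near those of WT. Single libraries of Ltb and Il10 in that group lie beyond the WT range on both sides.

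Within a genotype the 6 transcripts differed in how steady they were. The within-group SD on the log2(normalized count + 1) scale was 0.22 for Il16, 0.30 for Csf1, 0.45 for Ltb, 0.64 for Il10, 0.65 for Areg and 1.01 for Ifng, beside a median of 0.40 over all tested genes. The SD of Ifng was larger than that of 91.6% of tested genes, that of Il10 larger than 72.4%, and that of Il16 larger than 21.0%, and low genes vary more by counting alone. After each group's mean was taken away, Ltb and Il16 varied together over the 10 libraries (Pearson r = 0.73), and the other pairs among Csf1, Il10, Ltb and Il16 had r between -0.32 and 0.19. These values describe 10 libraries that share their size factors and are given without a test. Flcn KO replicates 1 and 5 were high in Il16, and replicates 2 and 4 were low in both Il16 and Ltb.

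**Figure D3:**
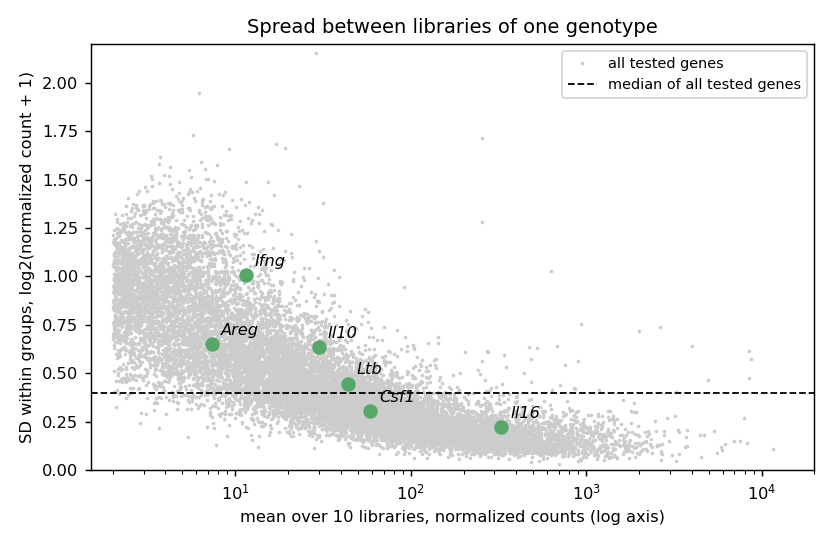
Mean level over 10 libraries (log axis) against the SD within groups on the log2 scale, for all tested genes (grey) and the 6 cytokines (green), with the median SD of all tested genes as a dashed line at 0.40. Il10 (0.64) and Ifng (1.01) lie above that line, and Csf1 (0.30) and Il16 (0.22) lie below the median line.

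The genes whose levels followed each cytokine most closely between libraries of the same genotype were found over 8748 other genes, again with group means removed. For Csf1 they were the splicing factor genes Bud31 (r = 0.96) and Cwc25 (r = 0.94) and the inhibitory receptor gene Lilrb4a (r = 0.90). BC029214, Nucb2 and Gtf3c5 followed Il10 (r = 0.93, 0.92 and 0.90). Ltb was followed by the thioredoxin gene Txn1, by Zmat2 and by the chromatin protein gene Dek (r = 0.95, 0.94 and 0.92). For Il16 they were the glycolytic aldolase gene Aldoa, the translation factor gene Eif3g and Mepce (r = 0.97, 0.97 and 0.95). These are the highest of 8748 values over 10 libraries and carry no test. Ifng and Areg were too sparse for this comparison.

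Genes next to the cytokines in the genome did not move with them past the test. For Csf1 on chromosome 3, Ahcyl1 had a log2 fold change of 0.06 (limma adjusted p = 0.889). Beside Ifng on chromosome 10, the kinase gene Dyrk2 had 0.30 (adjusted p = 0.479 in limma). Mapkapk2, a kinase gene next to Il10 on chromosome 1, had 0.06 (adjusted p = 0.953, limma). Ltb lies on chromosome 17 between Lst1 (0.54, limma adjusted p = 0.754) and Tnf (-0.03, adjusted p = 0.978). Stard5, 491 bases from Il16 in GRCm38 on chromosome 7, had -0.21 (limma adjusted p = 0.642). Around the place of Ebi3 on chromosome 17, Zfp119b had -0.77 from 0 to 7 reads per library, and Ccdc94 had 0.29 (limma adjusted p = 0.603 and 0.759). The other neighbours, including both of Areg, were not analysed here.

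Other secreted cytokines and growth factors formed a list of 54 genes, of which 30 were in the table and tested. Of these, 1 rose and 1 fell (limma, adjusted p under 0.05; over all genes 0.944% rose and 0.768% fell), and the median over the list was 0.02 on the log2 scale. Grn, which encodes the secreted lysosomal protein progranulin, rose from 38.4, 46.3, 34.4, 45.3 and 40.9 normalized counts in WT to 132.0, 105.5, 122.7, 76.3 and 77.9 in the libraries labelled Flcn KO (log2 fold change 1.28, SE 0.19, limma adjusted p = 0.0112). Cxcl10, a chemokine gene driven by interferons, fell from 8.67, 12.1, 12.7, 11.3 and 8.40 to 1.71, 4.44, 4.42, 0.991 and 4.39 (log2 fold change -1.57, SE 0.31, limma adjusted p = 0.0336). Both changes left no overlap between the groups. Cxcl10 rests on 1 to 17 reads per library and kept its call only without Flcn KO replicate 3 or 4 among the 10 fits that left out a library (adjusted p 0.0409 to 0.0903).

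The immune cytokines nearest in kind to Ltb and Il10 did not pass the test. Tnf, the inflammatory neighbour of Ltb, had means of 37.1 ± 14.7 and 35.4 ± 8.17 normalized counts (SD, n = 5 each). Lta, whose product joins lymphotoxin beta, had 86.5 ± 22.7 and 80.7 ± 13.4 (log2 fold change -0.07, SE 0.21, limma adjusted p = 0.922). Tgfb1, the transforming growth factor made by Treg cells, had 114.9 ± 20.2 and 138.1 ± 32.1 (log2 fold change 0.25, SE 0.19, limma adjusted p = 0.613). Il2, Il12a and Il27, the last of them genes for partners of the Ebi3 chain, had no row and were not analysed here.

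**Figure D4:**
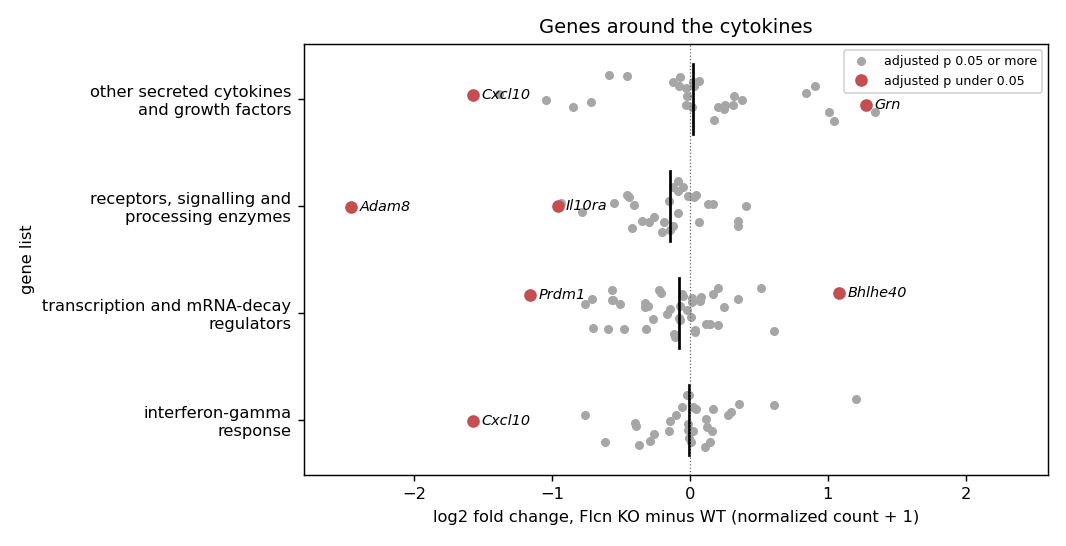
Log2 fold change, libraries labelled Flcn KO minus WT, for each tested gene of 4 lists around the cytokines (rows, with vertical jitter only to separate points); red points passed limma (adjusted p under 0.05), and black bars are list medians. The red points are Grn and Cxcl10 among cytokines, Adam8 and Il10ra among receptors and processing enzymes, Bhlhe40 and Prdm1 among regulators, and Cxcl10 again in the interferon-gamma response.

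Receptor chains, signalling proteins and processing enzymes of the cytokines showed 2 falls and no rise among 31 tested genes of 34 in limma. Over all tested genes, limma called 0.768% lower and 0.944% higher. In limma 9 of the 31 had an unadjusted p under 0.05, 7 of them lower. Here and below, such counts are given without the share of all tested genes under that threshold, and nothing is read from them. On whole reads, edgeR called 6 of the 31 lower and 0 higher, beside 2.62% of its genes called lower and 5.64% in either direction. The list's median was -0.14. Il10ra, the ligand-binding chain of the interleukin-10 receptor, fell from 75.5, 53.4, 76.4, 55.5 and 79.8 normalized counts in WT to 36.9, 24.4, 49.7, 30.7 and 33.3 in the libraries labelled Flcn KO (log2 fold change -0.96, SE 0.20, limma adjusted p = 0.0486). No library labelled Flcn KO reached the lowest WT library. The call was kept without Flcn KO replicate 3 (adjusted p = 0.0322) and lost without any 1 of the other 9 libraries (up to 0.123 in limma, without WT replicate 3). Il10rb, the shared second chain, had 70.5 ± 5.40 and 64.6 ± 5.72 (log2 fold change -0.13, SE 0.12, limma adjusted p = 0.704).

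Adam8, a membrane metalloprotease gene, fell from 35.9, 27.0, 56.0, 47.6 and 44.1 normalized counts to 3.43, 2.22, 17.7, 8.92 and 8.79 (log2 fold change -2.46, SE 0.44, limma adjusted p = 0.0243). It lost its call without WT replicate 3, 4 or 5 or Flcn KO replicate 1 or 5 (adjusted p 0.0124 to 0.0700 in limma over the 10 such fits). Adam17, the enzyme known to shed amphiregulin and membrane-bound Csf1, had 243.6 ± 28.3 and 230.4 ± 33.7 (log2 fold change -0.09, SE 0.15, limma adjusted p = 0.858). Cd4, which encodes the receptor of released Il16, had a log2 fold change of -0.19 (SE 0.14, limma adjusted p = 0.602).

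Chains that receive interferon-gamma and the Ebi3-containing cytokines did not pass either. Ifngr1, the ligand-binding chain for interferon-gamma, had a log2 fold change of -0.30 (SE 0.14, limma adjusted p = 0.383), and Ifngr2 had 0.35 (SE 0.16, limma adjusted p = 0.349). Il6st, which encodes the signalling chain gp130, had 1173 ± 119.6 and 801 ± 68.0 normalized counts without overlap, and missed the threshold (-0.55, SE 0.12, limma adjusted p = 0.0577). Il27ra had 373.0 ± 19.6 and 293.4 ± 17.2, also without overlap (-0.35, SE 0.11, limma adjusted p = 0.167). Both Il6st and Il27ra passed in edgeR, in DESeq2 and in limma with trend and robust settings. Csf1r, the receptor of Csf1 and a marker of myeloid cells, was at 13.6 to 43.4 in WT and 15.7 to 30.9 in the libraries labelled Flcn KO (limma adjusted p = 0.605). Ltbr and Egfr were not analysed here.

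Regulators of T cell cytokine genes, both transcription factors and mRNA-decay factors, included 1 rise and 1 fall among 44 tested genes of 45 (limma, beside 0.944% and 0.768% of all tested genes), with a median of -0.08. An unadjusted p under 0.05 was found for 10 of them in limma, 8 of them lower, again without the share of all tested genes. Of 43 regulators edgeR called 2 higher and 5 lower, beside 5.64% of its genes called in either direction. Bhlhe40, a factor that restrains Il10 transcription in T helper cells, rose from 209.3, 216.4, 329.8, 251.5 and 332.7 normalized counts in WT to 619.9, 512.9, 587.9, 516.3 and 559.4 (log2 fold change 1.08, SE 0.17, limma adjusted p = 0.0127). Prdm1, which encodes Blimp-1, a factor needed for Il10 in effector Treg cells, fell from 149.9, 124.6, 193.5, 130.3 and 170.0 to 60.0, 65.5, 117.1, 59.5 and 50.2 (log2 fold change -1.16, SE 0.23, limma adjusted p = 0.037). The groups did not overlap for either gene. Prdm1 kept its call without Flcn KO replicate 3 (adjusted p = 0.00842) and lost it without any 1 of the other libraries (up to 0.0961 in limma).

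Maf, an activator of Il10, had 382.6 ± 69.8 and 229.1 ± 62.1 normalized counts and did not pass (log2 fold change -0.76, SE 0.22, limma adjusted p = 0.139). For the type 1 program behind Ifng, Tbx21, which encodes T-bet, had only 0 to 12 reads per library (-0.50, SE 0.74, limma adjusted p = 0.824). Stat4, which relays interleukin-12, had 158.4 ± 11.6 and 108.3 ± 33.3 (-0.59, SE 0.20, limma adjusted p = 0.214). Gata3, the type 2 factor, had 281.0 ± 49.9 and 189.6 ± 20.9 (-0.56, SE 0.15, limma adjusted p = 0.117). Maf, Stat4 and Gata3 passed in edgeR, in DESeq2 and in limma with trend and robust settings. The levels of Il10 therefore stood side by side with a fall of Prdm1 and a rise of Bhlhe40 in the same libraries. Whether these are linked was not tested.

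**Figure D5:**
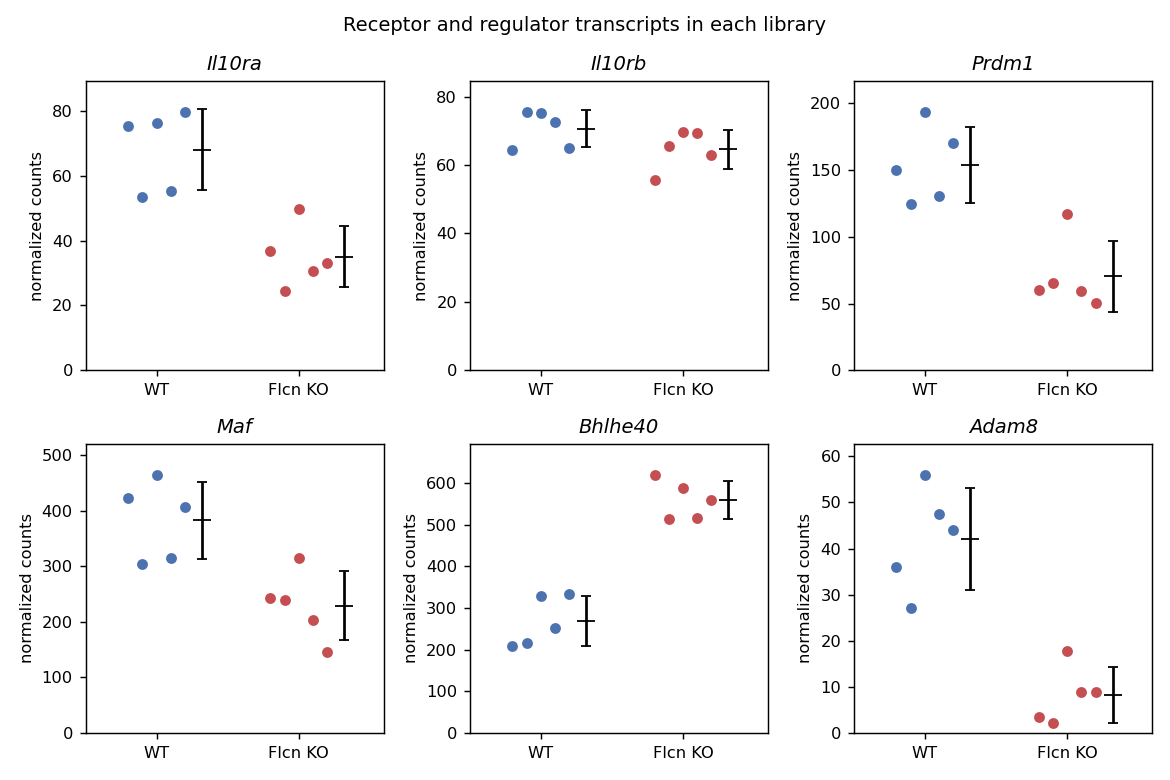
Normalized counts in each library (vertical axes, linear from 0) of the interleukin-10 receptor chains Il10ra and Il10rb, the regulators Prdm1, Maf and Bhlhe40, and the metalloprotease Adam8, with WT in blue, libraries labelled Flcn KO in red and the mean with SD in black. Il10ra, Prdm1, Adam8 and Bhlhe40 show no overlap between the groups, while Il10rb and Maf overlap.

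The lower Ifng was set beside genes that interferon-gamma is known to induce. Of 32 tested response genes of 33, 1 fell and none rose in limma, beside 0.768% and 0.944% of all tested genes. An unadjusted p under 0.05 in limma was found for 7, of which 2 were higher and 5 lower, again without the share of all tested genes. Of 30 genes edgeR called 2 lower and 0 higher, beside 2.62% of its genes called lower. The one that fell in limma was Cxcl10. The log2 fold change was positive for 15 and negative for 17, with a median of -0.01. Many of these genes also respond to other interferons. The group means, WT first, were 794.5 and 595.9 normalized counts for Gbp4 and 307.6 and 308.5 for Irf1. All WT libraries lay above the others for Gbp4, as for 2.45% of all tested genes. Gbp4 did not pass (log2 fold change -0.40, SE 0.14, limma adjusted p = 0.220), and Irf1 overlapped between the groups.

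Markers of other cells that could be in the sort were measured beside the cytokines. B-cell markers (13 of 14 in the table) summed to 1300 to 1504 normalized counts in WT and 1483 to 2905 in the libraries labelled Flcn KO, highest in Flcn KO replicate 3, and 12 of 13 had a positive log2 fold change (median 0.52). Limma called none of them, with 4 at an unadjusted p under 0.05, and edgeR called 0 of 11. For these and the myeloid markers, the share of all tested genes under that unadjusted threshold is again not given. Ms4a1 and Cd79a had reads in every library, while Blk was at 0 in 1 WT library. Ltb and Il16 are also transcribed by B cells, and the part of B cells in their levels was not tested. Myeloid and dendritic markers (15 of 18 in the table) summed to 629 to 931 in WT and 833 to 1205 in the other group (median 0.49; none called in limma, 3 with an unadjusted p under 0.05, 1 called in edgeR). Markers of CD8 T and NK cells, which make much interferon-gamma, summed to 88.2 to 125.1 in WT and 84.4 to 159.1 in the other group, with a median of -0.03 over the 8 of 10 genes in the table and overlapping ranges. Klrk1, Klrd1 and Gzma were each at 0 in 1 library labelled Flcn KO, and Gzma in 2 WT libraries. Conventional CD4 T cell markers included 1 fall in limma, Cd226, among 9, and edgeR called 1 higher and 2 lower. Over all tested genes limma called 0.768% lower, and edgeR called 5.64% in either direction. The median of these CD4 markers was -0.13, with 5 of 9 negative. Their mean log2 level was 7.75 to 8.25 in WT and 7.67 to 7.90 in the other group. Their sum, most of it Satb1 and Tcf7, pointed the other way, at 4419 to 5639 and 4916 to 6304 normalized counts.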

How the data were processed

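Normalized counts were deposited by the authors as signal per gene and library, with their own comparison as a log2 fold change, its SE, a Wald score and p-values. Build mm9 and 4 tools, DESeq2 1.24.0, RSEM 1.3.1, STAR 2.5.3a and Trimmomatic 0.36, appear in the submitters' processing notes without a role or order. Libraries were made with a NuGEN low-input method, per the labels' protocols.

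Every deposited value was a whole multiple of the worth of 1 read (within 0.01 reads), so reads were recovered. The main fit was limma 3.58.1 on log2(normalized count + 1) with genotype alone, for genes at 1 or more in at least 5 libraries, with Benjamini-Hochberg adjustment over all tested genes and a threshold of 0.05. Alternatives were other pseudocounts, filters and scaling, trend and robust settings, a replicate block and leaving out each library. Further alternatives were edgeR 4.0.16 and DESeq2 1.42.0 on the recovered reads. Simulated data were also run through limma, edgeR and DESeq2. The share of changed genes each tool recovered there is not given here. That run is therefore not taken as a check of the main fit or of sparse genes. P-values set the difference between the groups against the spread between these libraries within a group. Reads carry no molecular identifiers, so intervals cover counting error only.

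The cytokines, the gene lists and the rule for named genes were chosen with earlier results of these data known. Genes named are the cytokines, up to 4 called genes per list, a fixed panel, genomic neighbours (RefSeq, GRCm38.p6) and the 3 genes most like each cytokine at a mean of 20 or more. The response genes Gbp4 and Irf1, the markers and Cd226 were named after their values were seen. Lengths are from GENCODE vM21 (R 4.3.3 and Python 3.11.15 were used). Some genes are not reported here.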

Additional observations from a re-analysis of the deposited data

Results flagged for a closer look

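Of 100 groups of 5 values examined (each cytokine and named gene in each genotype, and the mitochondrial rRNA share), 8 had 1 library far from the other 4, where chance gives about 1 in 20. In WT, replicate 4 had the highest Areg (22.7 normalized counts against 7.35 to 11.1 in the other 4), replicate 5 the highest Tnf (63.0 against 27.2 to 34.0) and replicate 1 the highest Flcn (78.0 against 45.6 to 54.7). WT replicate 3 had the lowest Zmat2 (71.3 against 92.6 to 98.6), and WT replicate 1 had the highest mitochondrial rRNA share (44.1% against 24.7% to 26.6%). In the libraries labelled Flcn KO, replicate 3 had the highest Prdm1 (117.1 against 50.2 to 65.5) and the highest Lilrb4a (772.5 against 393.0 to 471.7), and replicate 1 the highest Ifngr2 (145.8 against 96.6 to 103.1). Without WT replicate 1 the log2 fold changes were -1.94 for Csf1, -2.66 for Ifng and -1.74 for Areg, close to those with it.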

How the results depend on the processing

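The 6 cytokines' log2 fold changes moved by less than their within-group SD in all alternatives run but the pseudocount of 5, which gave -1.75 for Ifng and -1.06 for Areg, as a larger added value shrinks low counts. edgeR's filter left out Ifng and Areg, and a mean of at least 10 left out Areg. Leaving out 1 library gave 72 to 134 genes called higher and 44 to 87 called lower, with fewer libraries in each fit. The lists then held 0 to 1 falls among other cytokines, 0 to 3 among receptors and processing enzymes, 0 to 1 among regulators and 0 to 1 in the interferon-gamma response. Genes near 0 changed sign in such fits: Ahcyl1 (-0.0019 to 0.11), Lst1 (-0.012 to 0.81), Lta (-0.22 to 0.025), Mapkapk2 (-0.14 to 0.16) and Tnf (-0.13 to 0.18). Against 139 higher and 113 lower genes in limma, edgeR called 317 and 275, DESeq2 379 and 348, and trend with robust 325 and 273. Falls among receptors were 6 in each of these 3, among regulators 5 in each, and in the interferon-gamma response 2, 3 and 3; regulators had 2 rises in edgeR and in DESeq2, and other cytokines 2 falls in DESeq2. A mean of at least 10 gave 0 falls among other cytokines and in the interferon-gamma response, since Cxcl10 is then not tested, and 2 among regulators. A pseudocount of 0.5 gave 1 fall among receptors, and 5 gave 2 among regulators. The cause was not tested for the other shifts.

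Same-numbered libraries of the groups did not vary together (r = 0.005 to 0.04, while WT replicate 5 correlated best with Flcn KO replicate 1 at 0.15), so the numbers are not taken as pairs. A replicate block gave 35 higher and 24 lower genes, with 0 rises and 0 falls among other cytokines, 1 fall among receptors, 0 rises and 0 falls among regulators and 0 falls in the interferon-gamma response. Depth limits Ifng and Areg most, which had 0 to 6 and 1 to 5 reads in each Flcn KO library. Under the block Grn, Cxcl10, Il10ra, Bhlhe40 and Prdm1 lost their calls.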

Other observations

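The order of libraries within a genotype was shared by several of the genes described, a pattern chosen after their values were seen. WT replicate 2 was the lowest WT library for Csf1, Ifng, Il10ra, Adam8, Prdm1, Maf and Gata3, and Flcn KO replicate 3 was the highest library of its group for the same 7 genes. Over all 113 genes called lower in limma, WT replicate 2 was the lowest WT library for 36 and the highest for 6. Each other WT library was the lowest for 14 to 22, and WT replicate 3 was the highest for 43. Flcn KO replicate 3 was the highest of its group for 39 and the lowest for 11. Each other library of that group was the highest for 13 to 26, and Flcn KO replicate 1 was the lowest for 34. Over these 113 genes too, WT replicate 2 was most often the lowest of its group and Flcn KO replicate 3 most often the highest. The pattern was therefore not particular to the 7 genes, and its cause was not tested. Il10 did not follow this order, with its lowest WT value in replicate 5 and its highest value of the other group in replicate 2. Areg did not follow it either: Flcn KO replicate 3, with 1 read, was its lowest library.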
